A study of Homo sapiens with 4 samples.

Results

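The genes described here are 34 inflammatory cytokines, chemokines and genes of the NF-κB pathway, followed in U87MG cells given mycophenolic acid (MPA), guanosine or both. U87MG cells are a long-used line from a human glioblastoma, cultured here in medium with fetal bovine serum. The 34 genes were chosen by name. Of them, 32 have a probe set with 1 gene symbol on the Affymetrix PrimeView array, among 18132 genes in all; CSF2 and BIRC3 have none and are not analysed here. Where a gene had several probe sets, the one brightest on average over the arrays on the log2 scale stands for it. A floor was placed at the median probe set value, a signal of 63.0, and 23 of the 32 genes reached it on at least 1 array. The others were below it on all 4 arrays: IL32, CXCL3, CXCL5, CXCL6, CXCL10, CCL2, CCL5, CCL20 and NFKB2.

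The groups were MPA at 10 µM together with guanosine at 100 µM, MPA at 10 µM alone, guanosine at 100 µM alone, and DMSO as the control, each for 24 h. Each condition was read on 1 array, so every difference below is between 2 arrays, has no replicate check and carries no p-value. MPA inhibits IMP dehydrogenase, an enzyme on the route from IMP to GMP, while guanosine feeds the guanine nucleotide pool by salvage, past the block. The comparisons therefore ask what MPA does to these mRNAs and what remains of it when guanosine is supplied.

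NF-κB is a family of dimeric transcription factors held in the cytoplasm by IκB proteins. Signals from IL-1, TNF or Toll-like receptors lead to IκB breakdown, and the freed dimers enter the nucleus and bind κB sites in the promoters of cytokine genes. Among the genes they induce are their own inhibitors, which end the response. Glioblastoma cells of the mesenchymal kind are known for secreting chemokines and cytokines of the IL-6 family that draw in myeloid cells.

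RefSeq promoter windows (GRCh38.p14), which span an annotated start and lie mostly before it, were at hand for 27 of the 34 genes. Motif letters were searched on both strands of each window and of all 35116 windows in the table; the motifs were chosen after the genes' values were seen. The κB consensus was in a window of 16 of the 27 genes, against 11.3% of all windows. The genes were listed as cytokine and NF-κB genes, so a high share of κB letters follows in part from that choice. A listed gene counts if any of its windows matches, while the share of all is per window, so the 2 are not alike. The paralogs CXCL1, CXCL2 and CXCL3, much alike in sequence, count separately. The κB core GGAATTTCC, which lies inside a longer consensus match in all of its carriers but CXCL8 and ICAM1, was in 11 of the 27 and in 0.461% of all windows. The AP-1 letters TGANTCA were in 3 of the 27, IL1A, CXCL8 and IL11, and in 7.71% of all windows, and the TATA letters TATAAA in 8 of the 27 and 11.5%. A match describes letters only and is not a measured binding site. The 150 bases before the start are shown 5′ to 3′ for TNFSF9, IL24, IL1A, CXCL8, IL11 and IL6, the 6 listed genes with the highest log2 differences for MPA against DMSO, and for the neighbouring paralogs CXCL1, CXCL2 and CXCL3; capitals mark motif matches. IL1A has 2 annotated starts, and the one shown has both AP-1 matches before it.
TNFSF9 (chr19:6530876-6531025, plus strand): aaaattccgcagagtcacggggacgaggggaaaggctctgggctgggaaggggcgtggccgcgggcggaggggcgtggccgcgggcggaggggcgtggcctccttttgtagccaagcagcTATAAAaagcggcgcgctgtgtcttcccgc
IL24 (chr1:206897293-206897442, plus strand): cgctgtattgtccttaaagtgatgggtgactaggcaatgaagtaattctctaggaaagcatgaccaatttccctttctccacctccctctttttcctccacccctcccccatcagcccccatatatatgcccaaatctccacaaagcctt
IL1A (chr2:112784401-112784550, minus strand): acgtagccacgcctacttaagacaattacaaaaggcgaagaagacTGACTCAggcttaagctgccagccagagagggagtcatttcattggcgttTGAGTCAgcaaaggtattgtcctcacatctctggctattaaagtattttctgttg
CXCL8 (chr4:73740419-73740568, plus strand): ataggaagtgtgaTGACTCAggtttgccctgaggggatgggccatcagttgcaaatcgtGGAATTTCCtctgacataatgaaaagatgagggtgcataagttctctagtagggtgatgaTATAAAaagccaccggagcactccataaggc
IL11 (chr19:55370464-55370613, minus strand): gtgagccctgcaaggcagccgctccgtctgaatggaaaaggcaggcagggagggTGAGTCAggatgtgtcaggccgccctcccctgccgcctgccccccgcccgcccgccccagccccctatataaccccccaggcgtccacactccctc
IL6 (chr7:22727050-22727199, plus strand): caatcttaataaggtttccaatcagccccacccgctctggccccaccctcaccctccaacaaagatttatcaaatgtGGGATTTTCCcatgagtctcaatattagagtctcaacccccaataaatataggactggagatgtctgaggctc
CXCL1 (chr4:73869243-73869392, plus strand): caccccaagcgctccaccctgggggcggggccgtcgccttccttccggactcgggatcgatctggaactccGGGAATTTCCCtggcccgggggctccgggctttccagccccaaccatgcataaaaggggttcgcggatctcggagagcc
CXCL2 (chr4:74099196-74099345, minus strand): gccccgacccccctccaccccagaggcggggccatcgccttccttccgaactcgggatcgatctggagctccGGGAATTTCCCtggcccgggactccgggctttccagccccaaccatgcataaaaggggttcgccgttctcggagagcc
CXCL3 (chr4:74038690-74038839, minus strand): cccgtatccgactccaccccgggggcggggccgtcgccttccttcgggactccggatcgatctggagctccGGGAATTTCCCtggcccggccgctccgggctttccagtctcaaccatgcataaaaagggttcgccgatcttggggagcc
Counting from the annotated start, the AP-1 letters begin at -137 in CXCL8, at -96 in IL11 and at -105 and -55 in IL1A. The κB letters begin at -73 in IL6, at -79 in CXCL1 and CXCL3 and at -78 in CXCL2, as GGGAATTTCC in the last 3. These stretches of CXCL1 and CXCL2 were 88.7% identical in a global alignment, with gaps counted as differences, and those of CXCL1 and CXCL3 88.1%. The stretch of TNFSF9 holds a TATA match at -30 and no match to the κB consensus, the κB core or the AP-1 letters, and that of IL24 holds none of the 4 motifs.

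With MPA alone, the T-cell costimulatory ligand TNFSF9 was far above its DMSO level, and the cytokines IL24, IL1A and CXCL8 were moderately above it. The remaining genes, both the other ligands and the NF-κB subunits and their inhibitors, lay closer to their DMSO level, on both sides of it. Of the 23 genes compared, 4 exceeded DMSO by 1.5-fold or more with MPA, or 17.4%, where 5.31% of all 11204 genes did. None (0) of the 23 was at least 1.5-fold lower, against 7.31% of all genes. At 2-fold the counts were 2 higher, TNFSF9 and IL24, and 0 lower, against 1.69% and 1.4% of all genes. IL24 reached the floor on the MPA array only, so it could enter only by being higher there. Over the 22 genes at the floor on both arrays, a restriction added after the data were seen, 3 were at least 1.5-fold higher, or 13.6%, against 4.75% of the 10663 such genes. Over the 23 genes, 15 were higher with MPA, or 65.2%, against 50.8% of all genes, and the median log2 difference was 0.23 against 0.01 for all genes. Over the 22, 14 were higher, or 63.6%, against 49.7% of the 10663, and the median was 0.21 against -0.0014. Without the floor, the 32 genes had a median of 0.19 and all genes 0.04.

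**Figure D1:**
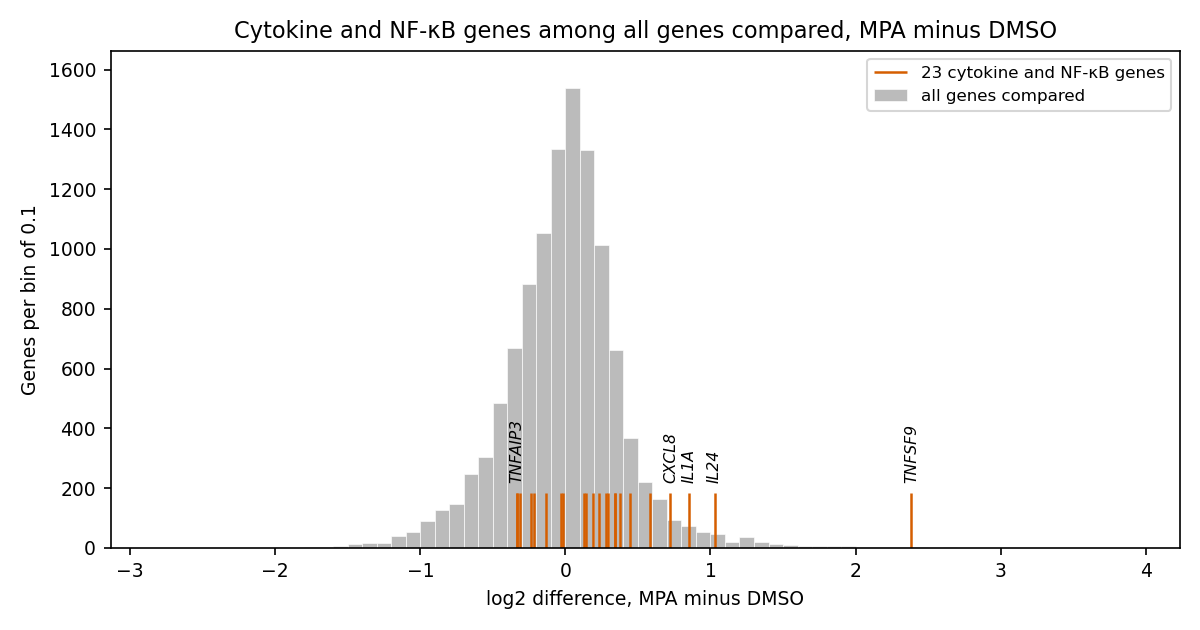
Number of genes in each bin of log2 difference, MPA minus DMSO, over 11204 genes (grey bars), with the 23 cytokine and NF-κB genes as orange lines. TNFSF9 lies at 2.39, apart from the other 22, which lie between TNFAIP3 at -0.34 and IL24 at 1.03.

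The arrays and the cells' identity were checked first. The median signal was 61.8 with both compounds, 64.5 with MPA, 62.5 with guanosine and 63.0 with DMSO. The log2 values of the MPA array correlated with those of the other arrays at r between 0.988 and 0.990 across all probe sets, and the other arrays among themselves at 0.997 to 0.998. Poly-A spike-in probe sets were lower on the MPA array than on the DMSO array, with a median log2 difference of -0.29. They were higher than on the DMSO array with both compounds (0.27) and with guanosine (0.22). Background probes of high GC content were higher on the MPA array, with a median of 0.26, and lower with both compounds (-0.15) and with guanosine (-0.08). The MPA array thus also stood apart from the 2 arrays with guanosine in these probes. Their part in the results, both compounds against MPA included, was not tested. The mesenchymal marker VIM had signals of 18322 to 20015, and the astrocyte marker GFAP 106 to 137, while S100B, AQP4, ALDH1L1 and SOX2 were below the floor. Of 9 macrophage and microglia markers, 3 reached the floor, and PTPRC, CD14, AIF1, ITGAM, FCER1G and CD163 did not on any array. The summed signal of these 9 was 1674 with both compounds, 2276 with MPA, 1707 with guanosine and 1583 with DMSO. Most of it was the lysosomal protein gene CD68, with 1871 with MPA and 1200.2 with DMSO (log2 0.64), while TYROBP was the lowest of the 3 at 0.07. Of the glioma markers at the floor, CHI3L1 was at least 1.5-fold higher with MPA (1932 against 1201 with DMSO, log2 0.69) and NES at least 1.5-fold lower (142 against 221, -0.63); with guanosine present CHI3L1 had 1192 with MPA added and 1158 without. Of 6 lymphocyte markers with a probe set, CD79A (0.18) and NKG7 (0.09) reached the floor, and the list's sum ranged from 243 to 304. The endothelial sum was 309 to 341, with 3 of 5 at the floor, from PECAM1 at 0.29 to KDR at -0.23. The epithelial sum was 279 to 343, with 4 of 5 at the floor, and 2 of its genes differed in opposite directions. EPCAM had 102 with MPA and 55.5 with DMSO, below the floor, and 54.9 with both compounds and 52.9 with guanosine, while KRT18 had 57.3 with MPA and 78.6 with DMSO. EPCAM, CHI3L1 and CD68 were thus highest on the MPA array, as were the 4 genes counted above, and their part in those results was not tested. The fibroblast and mural sum was 1518 to 2134, with 3 of 6 at the floor, from COL1A2 at 0.41 to PDGFRB at -0.09. In RNA from a whole culture, a change in the number of expressing cells and a change in RNA per cell cannot be told apart.

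Among the interleukins and cytokines of the IL-6 family, IL1A and IL1B, which encode ligands of the same IL-1 receptor, differed in pattern. IL1A had a signal of 143 with MPA and 79.3 with DMSO, 1.81-fold higher, and with guanosine in the medium it was 92.8 with MPA added and 87.7 without. IL1B had 555 with MPA and 487 with DMSO, a log2 difference of only 0.19, and was highest on the arrays with guanosine, at 815 with both compounds and 678 with guanosine alone. The MPA array was thus the highest of the 4 for IL1A and the third highest for IL1B. IL24, a cytokine of the IL-10 family, had 71.2 with MPA and 34.9 with DMSO. The DMSO signal is below the floor, against which IL24 was at least 1.13-fold higher with MPA. Its 2 other probe sets were below the floor on all arrays and differed by 0.88 and 0.35.

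IL6, IL11 and LIF encode cytokines that signal through the shared receptor chain IL6ST. IL11 had 315 with MPA and 210.5 with DMSO, a log2 difference of 0.58 that lies just under 1.5-fold, and its other probe sets at the floor gave 0.33 and 0.30. IL6 had 176 with MPA and 129 with DMSO, a difference of 0.45. The second probe set of IL6, below the floor, gave 0.05. LIF stayed close, at 344 with MPA and 316 with DMSO, a difference of 0.13, and 0.36 at its other probe set above the floor. Apart from IL24, which could enter only by being higher, the 5 genes of this group at the floor were all higher with MPA, and 1 of them, IL1A, by at least 1.5-fold. Of all genes at the floor on both arrays, 49.7% were higher and 4.75% by at least 1.5-fold. With only 5 genes, and LIF and IL1B at 0.13 and 0.19, the counts say little about the group.

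**Figure D2:**
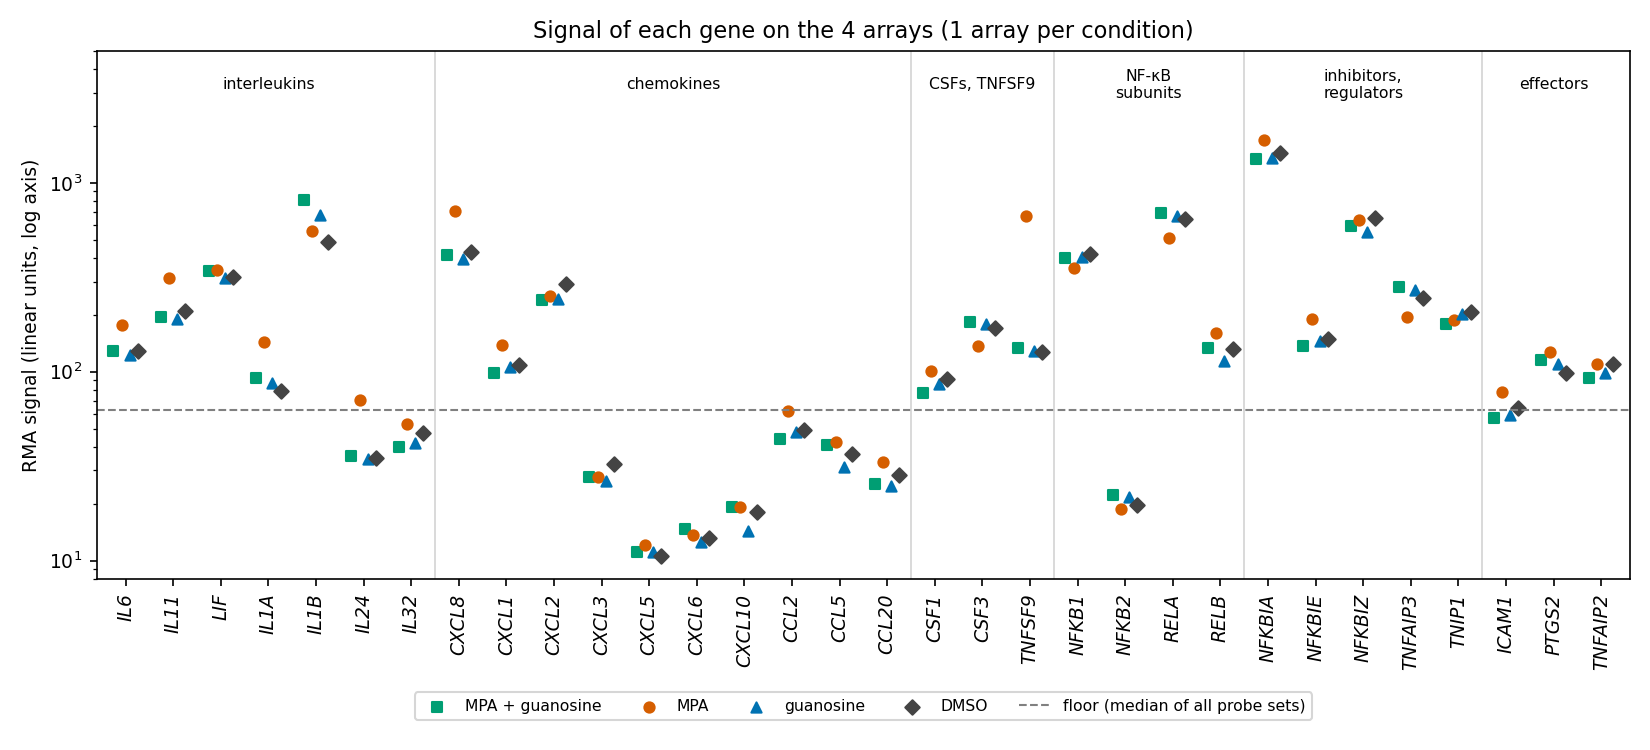
RMA signal (linear units on a log axis) of the 32 genes on each of the 4 arrays, grouped by role, with the floor of 63.0 as a dashed line. The MPA point stands above the other 3 for TNFSF9, IL1A, IL24, IL11 and CXCL8, and below them for RELA and TNFAIP3.

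Of the 10 chemokine genes, 3 reached the floor. CXCL8, CXCL1 and CXCL2 all encode chemokines that attract neutrophils through the receptor CXCR2. CXCL8 had 707 with MPA and 428 with DMSO, 1.65-fold higher, and with guanosine in the medium 416 with MPA added and 395 without. Its 2 other probe sets gave log2 differences of 0.67 and 0.66 for MPA against DMSO. The MPA array was alone high for CXCL8, and the other 3 arrays lay between 395 and 428.

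CXCL1 and CXCL2, whose promoter stretches are printed above, lay on opposite sides of 0. CXCL1 had 138 with MPA and 109 with DMSO, a log2 difference of 0.34, and 0.44 at its dimmer probe set, which was below the floor. CXCL2 had 251 with MPA and 291 with DMSO, a difference of -0.22, and -0.26 at its other probe set. For CXCL2 the DMSO array was the highest and the other 3 lay between 238 and 251. These mRNAs are similar in sequence, and how far their probes are shared between them was not checked. CXCL3 was below the floor throughout, at 27.9 with MPA and 32.5 with DMSO. The monocyte attractant CCL2 came closest to the floor without reaching it, at 62.1 with MPA and 49.3 with DMSO, and CXCL5, CXCL6 and CXCL10 stayed below 20 on every array.

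TNFSF9 encodes the ligand of TNFRSF9, a costimulatory receptor of activated T cells. Its signal was 665 with MPA and 127 with DMSO, 5.22-fold higher and rank 12 from the highest among the 11204 genes. With guanosine in the medium it was 133 with MPA added and 128 without, so that 3 of the 4 arrays lay within 127 to 133. Its second probe set gave 447 with MPA and 118 with DMSO, a log2 difference of 1.92. Among the colony-stimulating factors, the granulocyte factor CSF3 was lower, with 137 with MPA against 170.4 with DMSO, a log2 difference of -0.31, and -0.16 and -0.19 at its other probe sets. The macrophage factor CSF1 had 101 with MPA and 91.4 with DMSO, a difference of 0.14.

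The NF-κB subunit genes divided. RELA, which encodes the main transactivating subunit, had 511 with MPA and 644 with DMSO, a log2 difference of -0.33, and the MPA array was the lowest of the 4. The 2 other probe sets of RELA were below the floor and gave -0.09 and 0.21. NFKB1, which encodes the precursor of its usual partner, had 356 with MPA and 418 with DMSO, a difference of -0.23. RELB, of the noncanonical pathway, had 160.5 with MPA and 132 with DMSO, a difference of 0.28, but its 2 arrays with guanosine differed by nearly as much, 134 with MPA added and 114 without.

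Genes that restrain NF-κB, most of them also induced by it, were on both sides of 0 with MPA. NFKBIA, which encodes IκBα, had 1682 with MPA and 1434 with DMSO, a log2 difference of 0.23, with 0.33 and 0.30 at its other probe sets. NFKBIE, which encodes IκBε, had 189 with MPA and 149 with DMSO, a difference of 0.34. TNFAIP3, a ubiquitin-editing enzyme that shuts off signalling upstream of IκB kinase, was lower, with 195 with MPA against 246 with DMSO, a difference of -0.34, though its other probe set gave -0.05. TNIP1, which encodes a binding partner of the TNFAIP3 protein, had 188 with MPA and 206 with DMSO, a difference of -0.13. NFKBIZ, a nuclear IκB protein that helps induce IL6, had 633 with MPA and 648 with DMSO, a difference of -0.03 that became 0.04 after cyclic loess.

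Of the effector genes, PTGS2, the inducible cyclooxygenase of prostaglandin synthesis, had 128 with MPA and 98.4 with DMSO, a log2 difference of 0.38. For PTGS2 the DMSO array was the lowest, with 115 with both compounds and 110 with guanosine alone. ICAM1, the adhesion ligand of leukocyte integrins, had 78.5 with MPA and 64.2 with DMSO, a difference of 0.29, and was below the floor on both arrays with guanosine. TNFAIP2 had 109 with MPA and 110.3 with DMSO, a difference of -0.01. Over all roles the MPA array was the highest of the 4 for 14 of the 23 genes, or 60.9%, where it was the highest for 41.3% of the 11272 genes that reached the floor. It was the lowest for 4, CSF3, NFKB1, RELA and TNFAIP3, or 17.4%, against 41.7%. Over the 21 genes at the floor on all 4 arrays it was the highest for 12, or 57.1%, against 39.4% of such genes.

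With guanosine present, adding MPA left these genes close to their level with guanosine alone. This comparison shares no array with MPA against DMSO. None (0) of the 21 genes compared was 1.5-fold higher or lower, against 0% and 0.0184% of all 10861 genes, so that the count says little about these genes in particular. Of the 21, 13 were higher with MPA added, or 61.9%, against 58.8% of all genes. For the 21 genes, those at the floor on all 4 arrays, the differences lay between -0.17 (CSF1) and 0.26 (IL1B) with guanosine present, against -0.34 (TNFAIP3) and 2.39 (TNFSF9) without. Their median size, regardless of sign, was 0.08 with guanosine present and 0.31 without it, and over the 10417 genes at the floor on all 4 arrays 0.05 and 0.21. TNFSF9 differed by 0.05 with guanosine present, IL1A by 0.08, CXCL8 by 0.07 and IL11 by 0.04. IL24 and ICAM1 were below the floor on both arrays with guanosine, so they give no measured difference there. The size was larger without guanosine in 15 of the 21 genes, and in 8581 of the 10417, so the smaller sizes were not particular to these genes. For IL1B, LIF, NFKBIZ, CSF1, TNIP1 and TNFAIP2 the size with guanosine present was the larger, up to 0.26 (IL1B). Other probe sets at the floor gave the reverse for LIF (0.36 without and 0.25 with guanosine) and TNIP1 (-0.26 and 0.15, and -0.19 and -0.07). That of TNFAIP2 did not (-0.01 and -0.06).

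**Figure D3:**
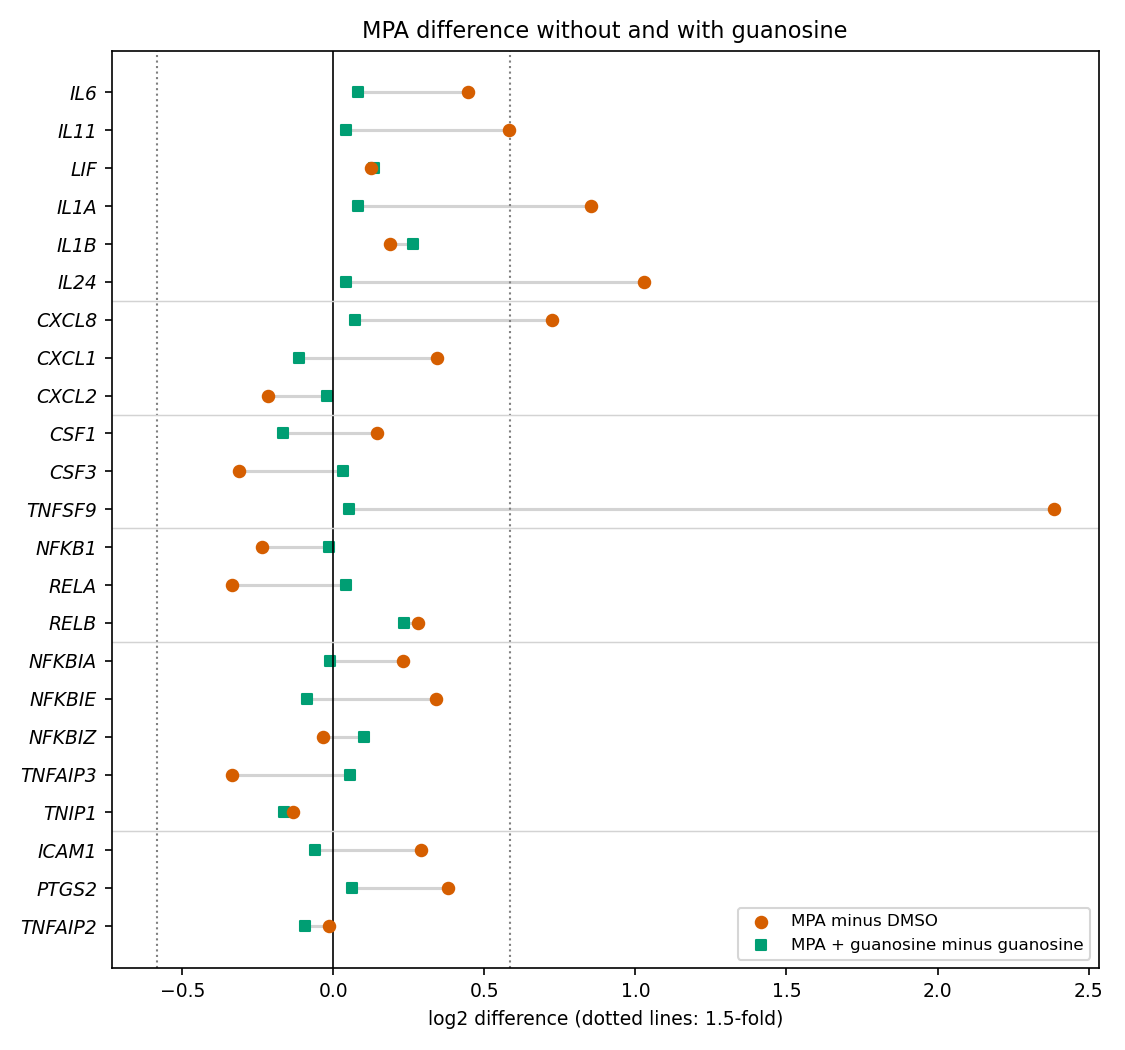
Log2 differences of the 23 genes for MPA minus DMSO (orange circles) and for MPA + guanosine minus guanosine (green squares), with dotted lines at 1.5-fold. The circles reach from -0.34 to 2.39, while the squares stay between -0.17 and 0.26; those of IL24 and ICAM1 come from signals below the floor.

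Guanosine alone against DMSO asks what the nucleoside does by itself, and both compounds against MPA what it does in the presence of MPA; these comparisons share no array. IL1B was higher with guanosine in both. It had 678 with guanosine and 487 with DMSO, a log2 difference of 0.48, and 815 with both compounds against 555 with MPA, a difference of 0.55. IL1B ranked 81 from the highest of 10919 genes with guanosine alone. For both compounds against MPA it ranked only 1055 of 11215, where 8.47% of all genes were at least 1.5-fold higher. It has 1 probe set with its symbol, so no second reading is at hand. None (0) of the 22 genes compared was 1.5-fold higher or lower with guanosine than with DMSO, against 0.339% and 0.11% of all genes, and 7 were higher, or 31.8%, against 49.4% of all genes. Their median was -0.04, and that of all genes -0.0011. ICAM1 was below the floor with guanosine and could enter only by being lower. Over the 21 genes at the floor on both arrays, 7 were higher, or 33.3%, against 49.7% of such genes. The median of these 21 was -0.04, against 0 for such genes. CXCL2 (-0.27), NFKBIZ (-0.24) and RELB (-0.22) were the lowest.

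Both compounds against MPA had 5 of 23 genes at least 1.5-fold lower, or 21.7%, against 4.77% of all 11215 genes, and 0 at least 1.5-fold higher, against 8.47%. The 5 were TNFSF9 (133 with both compounds, 665 with MPA, log2 -2.32), IL24 (35.8 and 71.2), CXCL8 (416 and 707, -0.77), IL11 (196 and 315, -0.69) and IL1A (92.8 and 143, -0.63). IL24 was below the floor with both compounds and at least 1.13-fold lower than with MPA, and could enter only by being lower. Over the 21 genes at the floor on both arrays, 4 were at least 1.5-fold lower, or 19.0%, against 4.16% of the 10536 such genes. Of the 23, 5 were higher with both compounds, or 21.7%, against 51.8% of all genes, and the median was -0.26 against 0.02 for all genes. ICAM1 was also below the floor with both compounds and could enter only by being lower. Of the 21, 5 were higher, or 23.8%, against 53.6% of the 10536, and the median was -0.24 against 0.03. TNFAIP3 was higher, with 280.1 with both compounds against 195 with MPA (0.52), as was RELA, with 691 against 511 (0.43), and CSF3, with 183 against 137 (0.42). The MPA array also enters MPA against DMSO, so these values and those of that comparison lean in opposite directions by construction.

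**Figure D4:**
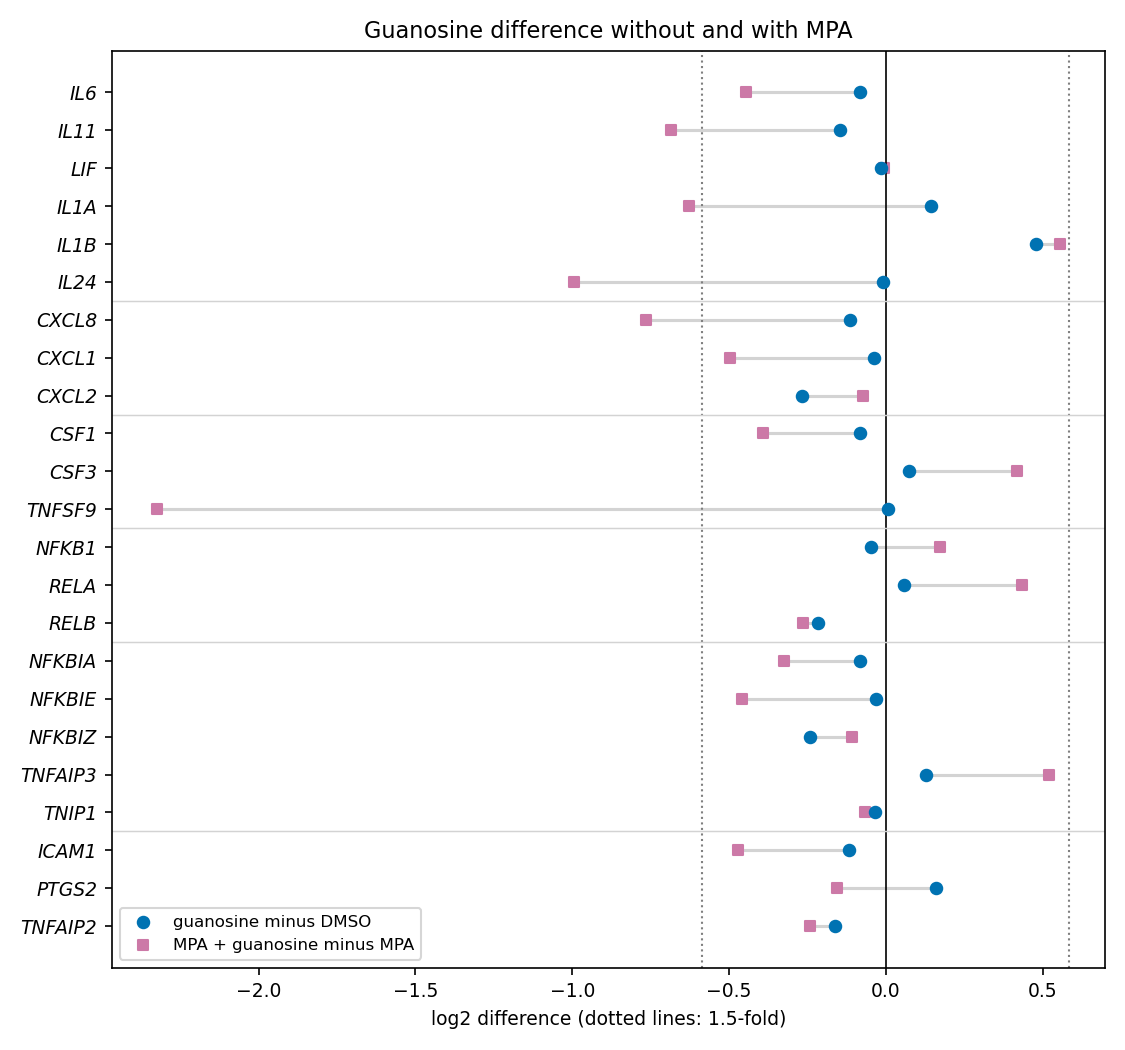
Log2 differences of the 23 genes for guanosine minus DMSO (blue circles) and MPA + guanosine minus MPA (pink squares), with dotted lines at 1.5-fold. IL1B lies to the right in both, at 0.48 and 0.55, while TNFSF9 lies at 0.01 and -2.32.

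Both compounds against DMSO left 1 of 22 genes past 1.5-fold, IL1B, or 4.55%, against 0.421% of all 10931 genes. IL1B had 815 with both compounds and 487 with DMSO, a log2 difference of 0.74 and rank 15 from the highest. None (0) was 1.5-fold lower, against 0.137% of all genes. The next highest were IL1A (0.23), PTGS2 (0.22) and TNFAIP3 (0.18), and the lowest were CXCL2 (-0.29), TNFAIP2 (-0.26) and CSF1 (-0.25). Of the 22, 9 were higher, or 40.9%, against 54.1% of all genes, and the median was -0.05 against 0.01 for all genes. ICAM1, below the floor with both compounds, could enter only by being lower. Over the 21 genes at the floor on both arrays, 9 were higher, or 42.9%, against 54.8% of such genes. Their median was -0.04 against 0.02.

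Other genes of the pathway were taken from 6 lists chosen by name, with values for MPA against DMSO. Their counts stand against the shares of all genes given above, 5.31% past 1.5-fold upward and 7.31% downward. Of 15 receptor genes for these ligands and for prostaglandin E2 that reached the floor, 1 was past 1.5-fold upward and 0 downward, close to those shares, with a median of 0.06. That 1 was PTGER4, a receptor for prostaglandin E2, with 325 with MPA and 138 with DMSO (1.23), while the related receptor gene PTGER2 was the lowest at -0.32. IL11RA stood at 0.56. The receptor TNFRSF9 of the TNFSF9 ligand had 82.4 with MPA and 69.1 with DMSO (0.25).

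Of 31 upstream signalling genes, 2 were past 1.5-fold upward and 2 downward, again close to the shares of all genes, and the median was 0.06. The higher ones were BCL3, a nuclear IκB protein, and TRADD, the adaptor of the TNF receptor (both 0.62). The lower ones were BIRC2, a ubiquitin ligase of that receptor complex (-0.71), and TRAF3, which restrains the noncanonical pathway (-0.65). CHUK, which encodes the IκB kinase α, was next at -0.58. Of 13 other NF-κB target genes, 2 were at least 1.5-fold higher, the complement genes C3 (567 with MPA and 283 with DMSO) and CFB (145 and 74.1, 0.97), and 0 at least 1.5-fold lower, against 5.31% and 7.31% of all genes. Their median was 0.17, with the plasminogen activator gene PLAU lowest at -0.46.

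Factors that control the decay or stability of cytokine mRNAs were lower in 11 of 14 cases, with a median of -0.13. Of the 14, 21.4% were higher, against 50.8% of all genes, and 2 of the 14 were at least 1.5-fold lower, against 7.31%. The AU-rich element binders HNRNPD (-0.68) and TIAL1 (-0.67) were at least 1.5-fold lower, KHSRP stood at -0.37 and RC3H2 was highest at 0.19. Among 11 cooperating transcription factors and IL-6 signalling genes, ATF3 (1.02), STAT3 (0.60) and CEBPD (0.59) were at least 1.5-fold higher. JUN, a subunit of AP-1, was at least 1.5-fold lower (922 with MPA and 1466 with DMSO, -0.67), and SOCS3, a feedback inhibitor of IL-6 signalling, stood at -0.45. The median of these 11 was -0.08. Of the 12 TNF superfamily ligand genes with a probe set, 3 reached the floor. Besides TNFSF9 these were CD70, with 2184 with MPA and 1143 with DMSO (0.93), and TNFSF13B, with 117 and 133 (-0.18).

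**Figure D5:**
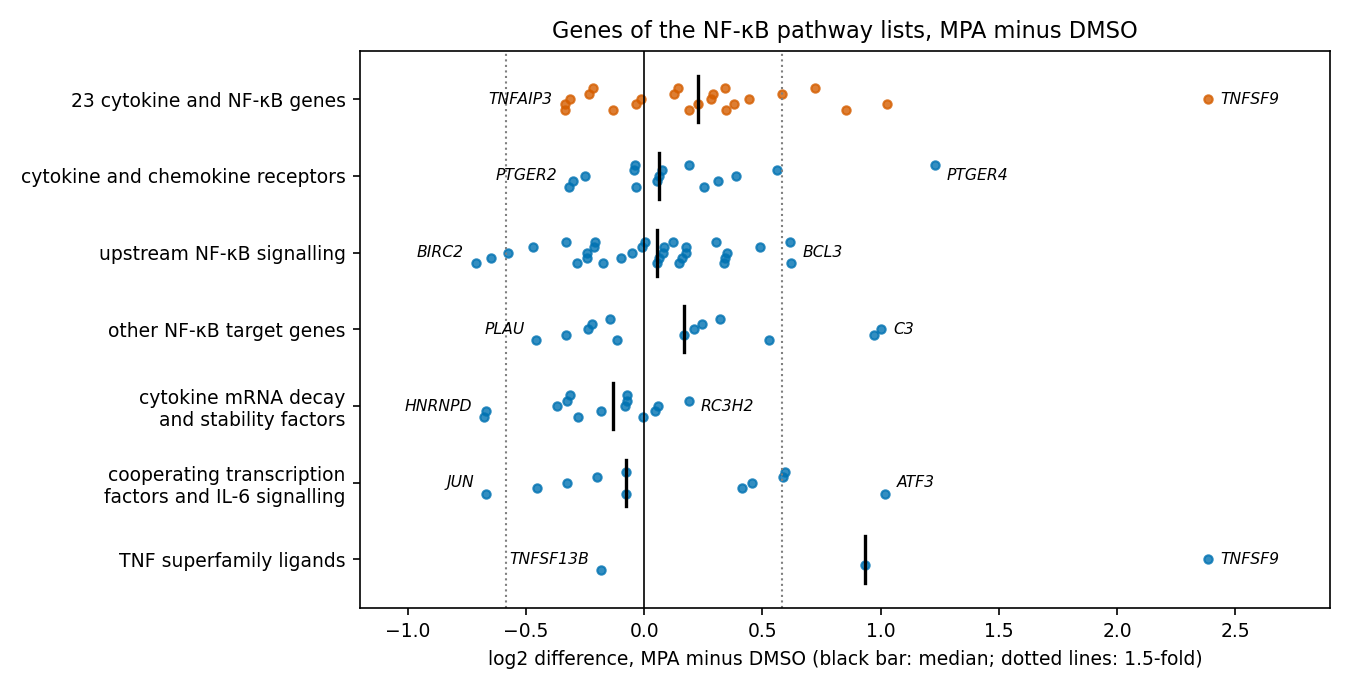
Log2 difference, MPA minus DMSO, of each gene at the floor in the set of 23 (orange) and in the 6 pathway lists (blue), with black bars at the medians and dotted lines at 1.5-fold. The highest and the lowest gene of each list are named, and TNFSF9 at 2.39 appears in the top and the bottom row.

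Over the genes compared, the promoter letters went with small differences in MPA against DMSO. The 686 genes with the AP-1 letters in a window had a median log2 difference of 0.06, and the 8572 genes with a window but without them -0.01. The 817 genes with the TATA letters had a median of 0.06 and the others -0.01, as large a difference as with AP-1. The 52 genes with the κB core had a median of 0.08 and the others -0.00041, and the 1603 genes with the κB consensus 0.02 against -0.0035. The listed genes were not taken out of these groups. CXCL8, CXCL1, CXCL2, NFKB1, NFKBIA, NFKBIZ and ICAM1 are among the 52. Since the motifs were chosen after the listed genes' values were seen, these medians in part restate those values. The 3 listed genes with the AP-1 letters, IL1A, CXCL8 and IL11, stood at 0.85, 0.72 and 0.58; TNFSF9 and IL24, both without them, were the only listed genes higher still than IL1A.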

How the data were processed

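Total RNA from U87MG cells was labelled with biotin for PrimeView arrays, with 1 array per condition. The deposited values are linear intensity values per probe set, named RMA signal by the authors per the labels. Neither the software nor its settings is stated. RMA, as commonly run, quantile normalises the arrays, which would hide a change in total mRNA per cell.

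The log2 of each value was taken. Of 49293 non-control probe sets, the platform annotation gave 1 gene symbol to 44988, more than 1 to 1832 and no entry to 2473. All 32 genes of the set kept their symbol in a RefSeq table. A gene was its probe set with the highest mean, _x_at probe sets included. It entered a comparison when the brighter array was at or above the floor (log2 5.98), and was counted at 1.5-fold on measured differences. Where the dimmer array was below the floor, a fold is given as "at least", the bright signal over the floor. With 1 array per condition no test was possible, and precision is limited by the array number; whether arrays came from separate cultures or days is not stated.

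The genes, lists, motifs and settings were chosen with earlier results of these data known. All 34 genes are named; of each further list, the highest and lowest, up to 2 more on each side, and those past 1.5-fold. Alternatives were no floor, a higher floor (75th percentile), the floor on both arrays (added after seeing the data), a gene's median probe set value, _x_at probe sets last, only genes whose probe sets share 1 direction, and cyclic loess (3 iterations, limma 3.58.1, R 4.3.3). Other steps used Python 3.11.15, numpy 2.4.6 and pandas 2.3.3. Counting at 1.5-fold was checked on simulated differences of known size.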

Additional observations from a re-analysis of the deposited data

Results flagged for a closer look

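For 9 of the 23 genes that reached the floor, MPA went with opposite signs without and with guanosine, a difference between conditions that was not tested, since each rests on 4 single arrays. Higher with MPA than with DMSO but lower with MPA plus guanosine than with guanosine were CXCL1 (0.34 and -0.11), NFKBIE (0.34 and -0.09), ICAM1 (0.29 and -0.06), NFKBIA (0.23 and -0.01) and CSF1 (0.14 and -0.17), all as log2 differences. The reverse held for TNFAIP3 (-0.34 and 0.06), RELA (-0.33 and 0.04), CSF3 (-0.31 and 0.03) and NFKBIZ (-0.0332 and 0.10). ICAM1 was below the floor on both arrays with guanosine, so its sign there is not a measured direction. Over the 21 genes at the floor on all 4 arrays, 8 had opposite signs, against 5281 of 10417 genes. Opposite signs were thus no more frequent in these genes than in all. Only CSF1, NFKBIZ and CXCL1 exceeded 0.1 in size with guanosine present. Other probe sets often gave another sign there: of 13 at the floor, 9 were opposite to the one standing for their gene and 4 were not. With guanosine present those of NFKBIA gave 0.02 and 0.14, those of CSF3 -0.12 and -0.01, and that of TNFAIP3 -0.01. For these 3 genes the opposite sign thus depends on the probe set.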

How the results depend on the processing

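Of 105 recomputed counts and medians, 99 stayed within 1.5 times the count or within 0.069 of the median, the SD of 1 array estimated from the closest pair. Of the others, 4 were medians that moved further and 2 were counts that fell. Many main counts were 0, and settings that only drop genes cannot change a 0. The 99 is therefore a weak check. With the floor at the 75th percentile, 11 genes remained for MPA against DMSO. Of these, 2 were at least 1.5-fold higher and the median was 0.13, against 367 of 6697 genes and a median of -0.05 for all genes. For both compounds against MPA, 3 of 11 were then at least 1.5-fold lower, against 304 of 6769 genes. The median was -0.0721, against 0.08 for all genes. With the median of probe sets, the medians were 0.30 for MPA against DMSO and -0.34 for both compounds against MPA. After cyclic loess, 5 of 23 genes instead of 4 were at least 1.5-fold higher with MPA, against 657 of 11105 genes. Over all genes, the higher 75th percentile floor left 367 of 595 genes at least 1.5-fold higher with MPA, 304 of 535 lower with both compounds than with MPA, 21 of 37 higher with guanosine and 20 of 46 higher with both compounds than with DMSO, since fewer genes were compared. Without a floor, 25 in place of 15 were lower with both compounds than with DMSO. For both compounds against guanosine, 2 were lower, 6 without a floor, 4 with the median of probe sets and 1 at the higher floor. Of 46 single-gene values for MPA against DMSO, 19 differed from the reported one by more than that SD. The pair behind the SD, both compounds and guanosine alone, are different treatments and not replicates. IL1A, IL1B, NFKB1, RELB, NFKBIE and NFKBIZ have 1 probe set each, so their median of probe sets could not differ. With the median of probe sets IL24 was 0.53, under 1.5-fold, IL11 0.33, IL6 0.25 and RELA -0.09. Single genes changed sign for MPA against DMSO in 2 cases, TNFAIP2 with the median of probe sets (0.33) and NFKBIZ after cyclic loess (0.04). No paired analysis was possible because each condition has 1 array. Signals near the floor, as for IL24, ICAM1 and CCL2, give little more than a bound.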

Other observations

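For IKBKB, CEBPB and CEBPD of the pathway lists the DMSO array was below all 3 others, a pattern chosen after the values were seen. How many of all genes show it was not counted. IKBKB, which encodes the IκB kinase β, had 295 with both compounds, 289 with MPA and 291 with guanosine, against 226 with DMSO. CEBPB, a transcription factor that acts with NF-κB at cytokine promoters, had 1918, 2045 and 1822 in the same order, against 1491 with DMSO, and its relative CEBPD had 341, 360.3 and 305, against 239 with DMSO.

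The pentraxin gene PTX3 and the early response gene IER3 were lower with guanosine in both comparisons that share no array, also as seen after the fact. PTX3 had 1075 with guanosine and 1385 with DMSO (log2 -0.36), and 1079 with both compounds against 1280.2 with MPA (-0.25). IER3 had 1172 with guanosine and 1528 with DMSO (-0.38), and 1222 with both compounds against 1717 with MPA (-0.49). In these 2 genes the direction was opposite to that of IL1B. Each of these values rests on single arrays and was not tested. How many of all genes were lower with guanosine in both comparisons was not counted.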
